A study of Mus musculus with 2 samples.

Results

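A set of 10 genes that mark microglia, the resident macrophages of the brain, were followed in RNA from whole postpartum mouse brain. The 10 genes were Cx3cr1, Csf1r, Aif1, C1qa, C1qb, Tyrobp, Trem2, P2ry12, Itgam and Ctss, out of 27861 gene names on the array. They were taken as given, by the gene name that the scanner files pair with each probe, and every non-control probe of these names was used, which gave 16 probes. Of the 10 genes, 5 had 1 probe, 4 had 2 probes and Csf1r had 3. A search by accession and by synonym found 0 further probes of these genes under other names.

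The samples were whole brains of C57BL/6J females, 8 weeks old, on postpartum day 0 (P0). TDAG51, also called Phlda1, is a gene of the pleckstrin homology-like domain family, and TDAG51-/- mice lack it. TDAG51+/+ dams were the wild-type control. TDAG51-/-Tg2 dams carry a TDAG51 transgene on the TDAG51-/- background, under the BAI1-AP4 promoter, which is active in brain and mainly in the cerebral cortex and hippocampus. The Tg2 line goes back to 1 founder, and the sample label names the transgene without the line, which the methods give. The RNA was hybridized in 2 colours to 2 arrays of 1 slide. On the first array, Cy3 held TDAG51-/- and Cy5 held TDAG51+/+. On the second array, Cy3 held TDAG51-/- again and Cy5 held TDAG51-/-Tg2. Each comparison therefore had 1 array, with no replicate and no dye swap, so no test was possible, and an effect of the dye and one of the genotype cannot be told apart. Neither the labels nor the methods give the number of dams behind each sample.

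Microglia depend on signals from other brain cells. Colony stimulating factor 1 and interleukin 34 act on the receptor CSF1R and maintain the cells, and the neuronal chemokine fractalkine (CX3CL1) acts on CX3CR1. P2RY12 senses ADP and is known for its part in the movement of microglial processes. TREM2 binds lipids and apolipoproteins and signals through the adaptor TYROBP. ITGAM pairs with ITGB2 to form complement receptor 3. C1QA, C1QB and C1QC together build C1q, the first component of the classical complement pathway, of which microglia are the main source in brain. AIF1 (IBA1) binds calcium and actin, and Ctss encodes cathepsin S, a lysosomal cysteine protease.

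The array measures each gene through 60-base probes, and the sequence of 5 of them is shown because the results below turn on them. They are those for C1qa and C1qb, which were lower in TDAG51-/- brain on both arrays, for Tyrobp, for the second probe of Aif1, and for the second probe of Cx3cr1, which went against the first. Positions are on the array design's build, mm7, with all but the Tyrobp probe on the minus strand. They are chr4:136274931-136274990 for C1qa, chr4:136259100-136259159 for C1qb, chr7:27358831-27360558 for Tyrobp, chr17:33268568-33268813 for Aif1 and chr9:119747387-119747446 for Cx3cr1. The Tyrobp and Aif1 probes span 1728 and 246 bases of the genome. Each has at least 1 reading frame without a stop codon. Sequences are printed 5′ to 3′ in lower case, and no part of them is marked.
C1qa probe A_51_P181451: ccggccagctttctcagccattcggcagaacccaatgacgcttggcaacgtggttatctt
C1qb probe A_51_P351860: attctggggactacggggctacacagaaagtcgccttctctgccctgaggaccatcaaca
Tyrobp probe A_51_P261517: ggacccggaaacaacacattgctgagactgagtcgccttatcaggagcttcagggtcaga
Aif1 probe A_52_P2754: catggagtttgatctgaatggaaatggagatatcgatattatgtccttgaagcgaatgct
Cx3cr1 probe A_51_P350853: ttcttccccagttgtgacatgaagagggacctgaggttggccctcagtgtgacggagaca

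Of the 10 microglia genes, each represented by the probe with the highest mean intensity, 8 were lower in TDAG51-/- than in TDAG51+/+ brain and 9 were lower than in TDAG51-/-Tg2 brain. Among the 22309 genes above background, 48.9% were lower in the first comparison and 48.5% in the second. The median log2 ratio of the 10 genes, TDAG51-/- over control, was -0.59 against TDAG51+/+ and -0.39 against TDAG51-/-Tg2, beside medians of 0.01 and 0.02 over all genes. At least 1.5-fold lower were 5 of the 10 genes (Csf1r, Aif1, C1qa, C1qb and Tyrobp) against TDAG51+/+, where 12.8% of all genes were. Against TDAG51-/-Tg2 they were 4 (Cx3cr1, Aif1, C1qa and C1qb), where 11.7% of all genes were. The 3 genes past 1.5-fold in both were Aif1, C1qa and C1qb, with 5.70% of all genes in this class. None of the 10 was at least 1.5-fold higher than both controls, a class that held 8.04% of all genes. At the 2-fold limit of the study, Csf1r was lower than in TDAG51+/+ (4.47% of all genes), Cx3cr1 and C1qa were lower than in TDAG51-/-Tg2 (3.86% of all genes), and 0 of the 10 were lower than in both (1.57% of all genes).

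By probe, 13 of the 16 were lower than in TDAG51+/+, 14 were lower than in TDAG51-/-Tg2 and 13 were lower than in both, beside 48.2%, 48.3% and 34.7% of the 33253 probes above background. Those at least 1.5-fold lower were 8, 6 and 5, beside 12.5%, 11.8% and 5.42% of all probes. The filter, a signal well above background in 1 or more channels of both arrays, was passed by all 16 probes. All 4 channels were well above background for 15 of them, and none was saturated. By the brightest probe of each gene, 8 of the 10 genes were lower than in both controls, beside 35.5% of all genes. Both comparisons have TDAG51-/- in Cy3, and whether these channels hold the same RNA is not given, so the counts over both are a description and not 2 separate observations. The TDAG51-/- channels were close for most probes but far apart for Hba-a1 and Phlda1, whose values are given with the blood genes and the targeted gene. In bulk brain RNA, fewer microglia and less of these RNAs per microglial cell cannot be told apart.

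**Figure D1:**
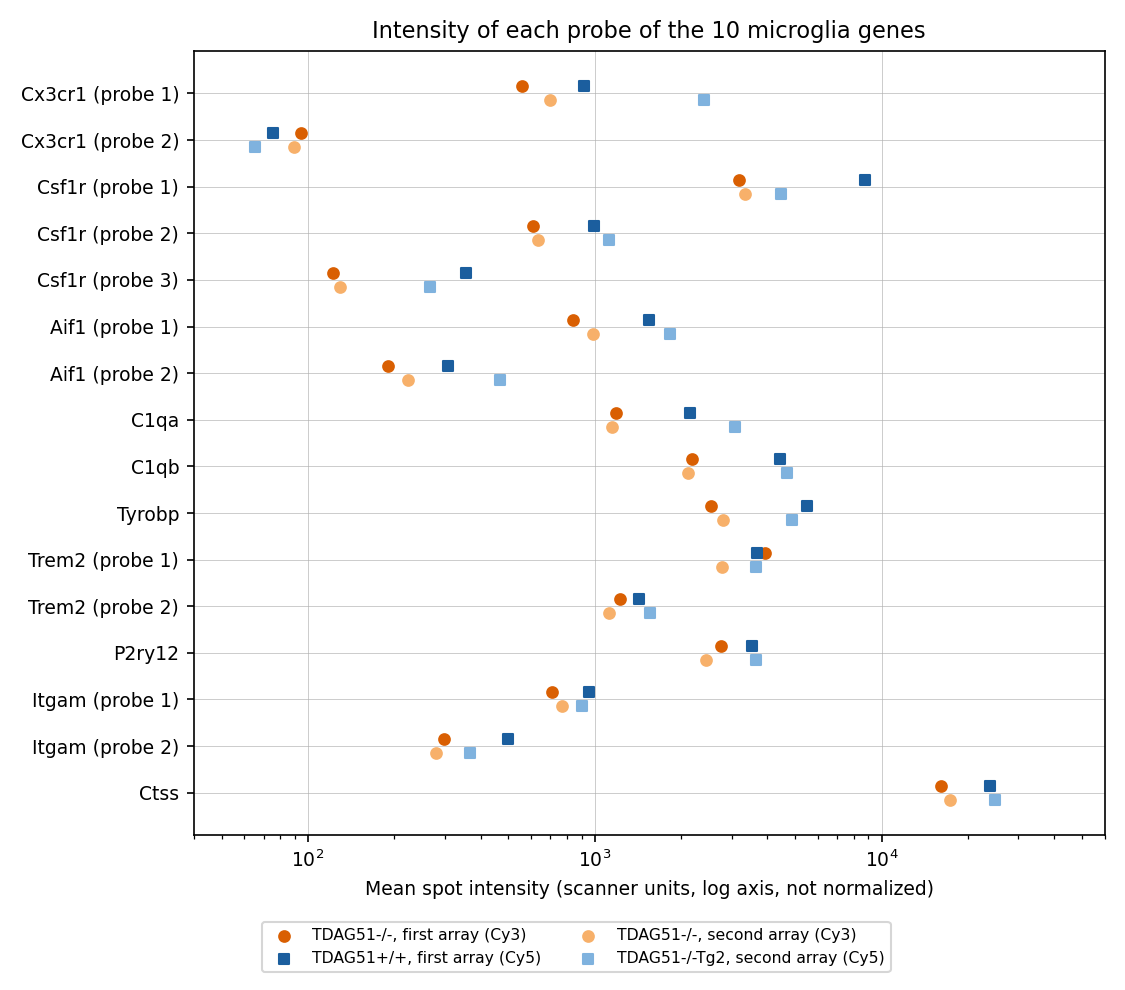
Mean spot intensity of each of the 16 probes in the 4 channels, in scanner units on a log axis and before normalization. Circles are TDAG51-/- (Cy3) and squares are the control (Cy5). The TDAG51-/- circles lie left of the square of their own array for all probes except the second probe of Cx3cr1, on both arrays, and the first probe of Trem2, on the first array.

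The C1q genes were lower in TDAG51-/- than in each control. The C1qa probe (NM_007572) had an intensity of 1184 in TDAG51-/- and 2153 in TDAG51+/+ on the first array, and 1150 in TDAG51-/- and 3071 in TDAG51-/-Tg2 on the second. The TDAG51-/- channels lay close to each other and below each control channel, and after normalization C1qa was 1.56-fold and 2.23-fold lower, with log2 ratios of -0.64 and -1.16. C1qb (NM_009777) read 2187 against 4434 and 2109 against 4684. It was 1.69-fold lower than in TDAG51+/+ and 1.82-fold lower than in TDAG51-/-Tg2. C1qc, which encodes the remaining chain and is not among the 10 genes, read 2330 against 3990 and 2490 against 4951, and was 1.42-fold and 1.61-fold lower. The 3 chains of C1q thus had log2 ratios between -0.75 and -0.51 in the first comparison and between -1.16 and -0.69 in the second.

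Aif1 (NM_019467), whose protein is the usual stain for microglia, was lower with both of its probes. The first probe (chr17:33268030-33268089) read 837 in TDAG51-/- and 1542 in TDAG51+/+, and 984 in TDAG51-/- and 1829 in TDAG51-/-Tg2, and was 1.61-fold and 1.57-fold lower. The second probe read 190 against 308 and 223 against 466, with a log2 ratio of -0.59 in the first comparison and 1.71-fold lower in the second. The log2 ratios of both probes were -0.69 and -0.59 in the first comparison and -0.65 and -0.78 in the second.

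For Csf1r (NM_007779), the probes disagreed on the size of the difference but not on its direction. The first and brightest probe (A_51_P365885) read 3193 in TDAG51-/- and 8719 in TDAG51+/+ on the first array, a ratio of -1.11 on the log2 scale or 2.15-fold lower. On the second array it read 3329 in TDAG51-/- and 4456 in TDAG51-/-Tg2, a log2 ratio of -0.11. The TDAG51-/- channels differed by 0.03 on the log2 scale, whereas the TDAG51-/-Tg2 channel minus the TDAG51+/+ channel was -0.97. The second probe (A_52_P602091) read 610 against 993 and 634 against 1120, and was 1.44-fold and 1.49-fold lower. The dimmest probe (A_52_P570471) read 122 against 355 and 129 against 266, and was 2.59-fold and 1.74-fold lower. The other probes thus did not share the near equality of TDAG51-/- and TDAG51-/-Tg2 that the first probe showed.

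Cx3cr1 (NM_009987), the fractalkine receptor, was lower with its brightest probe only. This probe (A_52_P99810, chr9:119745795-119745854) read 559 in TDAG51-/- and 918 in TDAG51+/+, and 700 in TDAG51-/- and 2402 in TDAG51-/-Tg2. It was 1.46-fold lower than in TDAG51+/+ and 2.88-fold lower than in TDAG51-/-Tg2, the largest fold of the 16 probes in the second comparison. Here the TDAG51-/-Tg2 channel was above that of TDAG51+/+ by 1.31 on the log2 scale, and the TDAG51-/- channel of the second array was above that of the first by 0.33. The second probe was dim, with 94.3 against 75.8 and 89.1 against 65.6, and went the other way, 1.22-fold higher in TDAG51-/- than in TDAG51+/+. Against TDAG51-/-Tg2, whose channel was not well above background, the second probe was higher by at least 1.21-fold. No other gene of the 10 had probes that opposed each other in direction in both comparisons.

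Tyrobp (NM_011662), the adaptor through which TREM2 signals, read 2537 in TDAG51-/- and 5491 in TDAG51+/+, and 2800 in TDAG51-/- and 4852 in TDAG51-/-Tg2. It was 1.77-fold and 1.40-fold lower, with both TDAG51-/- channels below both controls. Its partner Trem2 (NM_031254) had no such pattern. The brightest Trem2 probe (A_51_P269546, chr17:46496865-46496924) read 3919 in TDAG51-/- and 3671 in TDAG51+/+, but 2775 in TDAG51-/- and 3661 in TDAG51-/-Tg2. Its log2 ratios were 0.38 and -0.11, with the TDAG51-/- channels apart by 0.51 (log2 difference of -0.51, second minus first array) and the control channels by 0.02 (-0.02). The other Trem2 probe (A_51_P269549) read 1228 against 1422 and 1119 against 1562, with log2 ratios of -0.01 and -0.24.

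P2ry12 (NM_027571, chr3:59344780-59344839) read 2745 in TDAG51-/- and 3530 in TDAG51+/+, and 2450 in TDAG51-/- and 3652 in TDAG51-/-Tg2. After normalization its log2 ratios were -0.10 and -0.29, or 1.07-fold and 1.22-fold lower. Itgam, the alpha chain of complement receptor 3, had a brightest probe (A_52_P669155, AK170324, chr7:124214519-124214578) with 711 against 958 and 768 against 904, and log2 ratios of -0.26 and -0.01. Its other probe (A_51_P103007, NM_008401) read 299 against 498 and 280 against 368, and was 1.53-fold and 1.14-fold lower. Both Itgam probes were thus closer to equality against TDAG51-/-Tg2 than against TDAG51+/+.

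Ctss (NM_021281, chr3:95430189-95430248) read 16075 in TDAG51-/- and 23869 in TDAG51+/+, and 17259 in TDAG51-/- and 24900 in TDAG51-/-Tg2. The intensity-dependent (loess) normalization removed this difference, leaving log2 ratios of 0.00 and 0.06. With each array centred on its median, the log2 ratios of Ctss were -0.42 and -0.35, and without normalization they were -0.57 and -0.53, so the direction for Ctss depends on the scaling. It was the only one of the 10 genes whose brightest probe changed sign with the scaling.

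**Figure D2:**
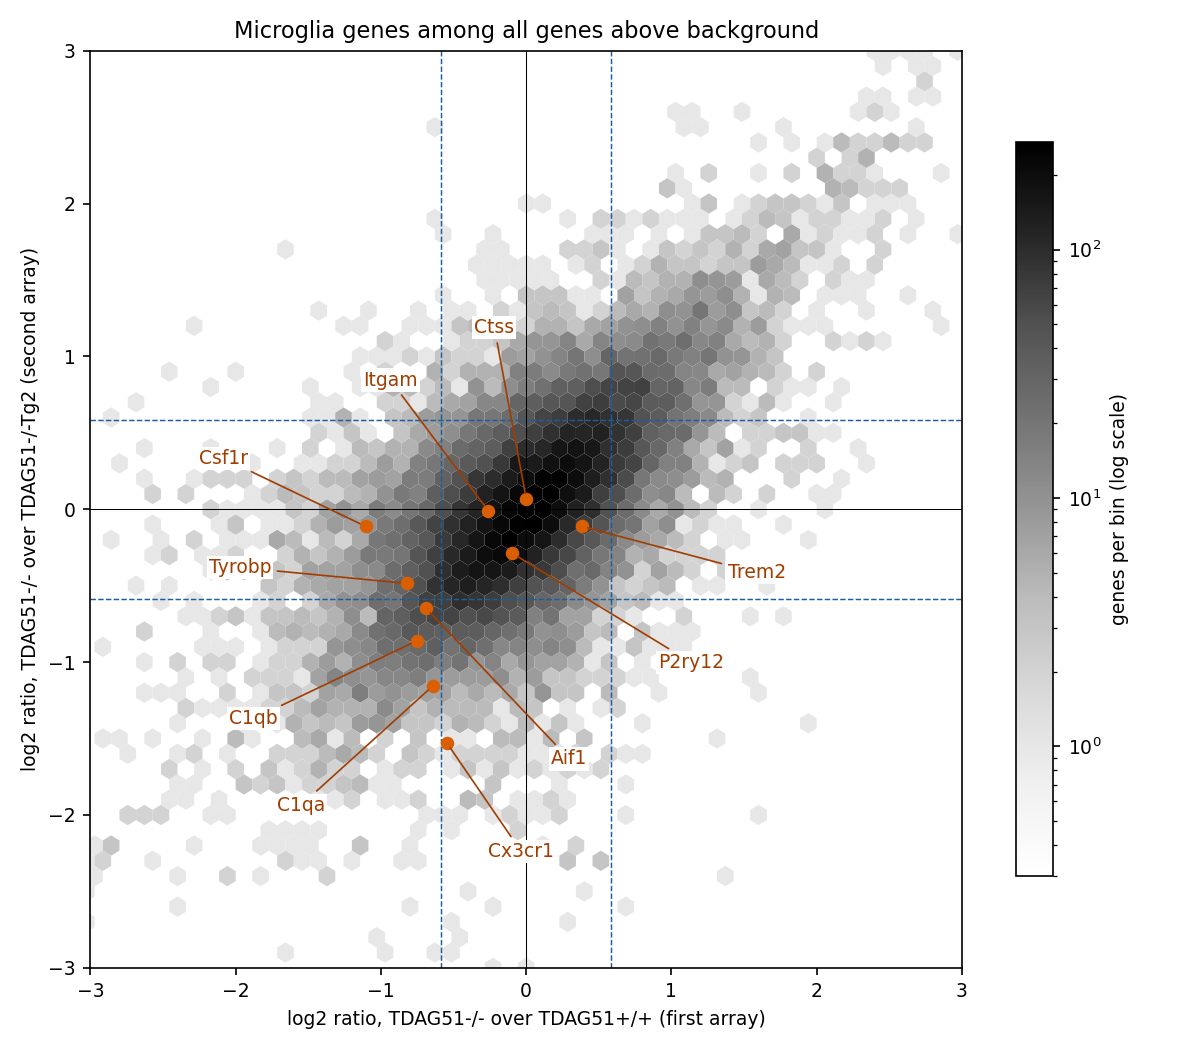
Log2 ratio of TDAG51-/- over TDAG51+/+ (horizontal axis) and over TDAG51-/-Tg2 (vertical axis) for the brightest probe of each gene above background. Orange points are the 10 microglia genes, grey hexagons count all genes on a log scale, dashed lines mark 1.5-fold, and 79 genes lie beyond the axes, which end at -3 and 3. Aif1, C1qa and C1qb lie past 1.5-fold on both axes, Cx3cr1 is lowest on the vertical axis with -1.53 and Csf1r is lowest on the horizontal axis with -1.11.

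The spread of the measurements can be described within the arrays only. Across the 245 probes printed at least 5 times, the median SD between spots was 0.0630 and 0.0650 on the log2 scale (first and second array). Each of the 16 microglia probes was printed once. Between the TDAG51-/- channels of both arrays the log2 difference had a robust SD of 0.144 over the 29876 probes well above background in all 4 channels, and between the TDAG51-/-Tg2 and TDAG51+/+ channels it was 0.399. For the 16 microglia probes, the TDAG51-/- channels differed by between -0.51 (the brightest Trem2 probe) and 0.33 (the brightest Cx3cr1 probe). The robust SD of the log2 ratios over all probes was 0.50 and 0.49. None of these spreads is one between animals.

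The genes that act on or with the 10 were followed from a list of 24 genes, of which C4a was not above background. Of the remaining 23, 11 were lower in TDAG51-/- than in TDAG51+/+ and 15 were lower than in TDAG51-/-Tg2. For this list and those below, the shares of all genes that were lower were 48.9% and 48.5%. Each gene of these lists is given by its brightest probe alone. Some had further probes, whose values are not given here. Cx3cl1, Grn, Pros1 and Gpnmb, for example, had 2 probes each and Aqp4 had 3. The median log2 ratios of the 23 genes were 0.06 and -0.19. The first of these was -0.06 with median centring and -0.21 without normalization. Cx3cl1, the fractalkine gene, which neurons express, read 8019 in TDAG51-/- and 29403 in TDAG51+/+, and 8635 in TDAG51-/- and 25560 in TDAG51-/-Tg2. It was 2.53-fold and 2.03-fold lower, in the same direction as the brightest probe of its receptor gene. Both ligands of CSF1R were on the array. Il34, which stands under an older clone name in the files, read 3095 against 6538 and 2919 against 8230, and was 1.70-fold and 2.22-fold lower. Csf1 read 1107 against 1280 and 1088 against 1054, with log2 ratios of -0.02 and 0.27. Genes of single brain regions, given further below, had median log2 ratios of -1.44 and -1.44 (striatum) and of 2.06 and 2.12 (cerebellum). The part of such regional differences in the ratios of Cx3cl1, Il34 and Csf1 was not tested.

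Itgb2, the partner of Itgam and also one of the other microglia-enriched genes, read 260 against 733 and 235 against 523, and was 2.52-fold and 1.89-fold lower. Cst3 encodes cystatin C, a secreted inhibitor of cysteine proteases such as cathepsin S. It read 3342 against 10722 and 4279 against 12471, and was 2.49-fold and 2.18-fold lower. Apoe, a ligand of TREM2, read 352 against 343 and 321 against 427, with log2 ratios of 0.14 and -0.19. Cx3cl1, Il34, Itgb2 and Cst3 were the 4 genes of the list that were at least 1.5-fold lower than both controls (5.70% of all genes). At least 1.5-fold higher than both were 0 (8.04% of all genes).

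The other microglia-enriched genes were given by a list of 18, all of them above background. Of these, 14 were lower than in TDAG51+/+ and 14 were lower than in TDAG51-/-Tg2, beside 48.9% and 48.5% of all genes. Their median log2 ratios were -0.48 and -0.21, beside the medians of 0.01 and 0.02 over all genes. Median centring gave -0.56 and -0.33. Tmem119, a membrane protein gene used to tell microglia from blood-derived macrophages, read 2044 in TDAG51-/- and 4689 in TDAG51+/+, and 1733 in TDAG51-/- and 5362 in TDAG51-/-Tg2. It was 1.91-fold and 2.52-fold lower. Siglech, another gene typical of microglia, read 105 against 216 and 145 against 359, and was 1.92-fold and 2.05-fold lower. Cd33, a sialic acid receptor gene, read 101 against 174 and 102 against 396, and was 1.61-fold and 3.14-fold lower. Siglech and Cd33 were dim in TDAG51-/-, though well above background in all 4 channels. As for the brightest Csf1r probe, the ratios against the 2 controls were far apart for some of these genes. P2ry13 had log2 ratios of -1.47 and -0.23 and Fcer1g of -0.91 and -0.18, whereas Fcrls had -0.51 and -0.98 and Selplg -0.38 and -0.99. Cd68, a lysosomal gene of phagocytes, was higher than in both controls, with log2 ratios of 0.44 and 0.26. P2ry13, Fcer1g, Fcrls, Selplg and Cd68 were chosen for mention after their values were seen.

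Genes of phagocytosis and the lysosome were followed by a list of 17. Of these, 6 were lower than in TDAG51+/+ and 6 were lower than in TDAG51-/-Tg2, with median log2 ratios of 0.20 and 0.19, which turned to -0.03 and -0.13 with median centring and to -0.18 and -0.31 without normalization. Grn, which encodes progranulin, read 7412 in TDAG51-/- and 4327 in TDAG51+/+, and 7465 in TDAG51-/- and 3181 in TDAG51-/-Tg2, and was 2.18-fold and 2.97-fold higher. Pros1, whose product binds the phagocytic receptors MERTK and AXL, was 1.54-fold and 1.59-fold higher. Mertk itself was 2.24-fold and 1.32-fold lower. Axl was 1.21-fold and 1.32-fold higher, with log2 ratios of -0.11 and -0.01 without normalization. Of the 17 genes, 4 were lower than both controls after loess (35.5% of all genes) and 9 were higher than both. Mertk and Axl were chosen for mention after their values were seen. Of 13 genes known to be raised in microglia of diseased brain, 7 and 5 were lower in TDAG51-/-, with medians of -0.20 and 0.19, the second of which was -0.17 without normalization. Spp1, the osteopontin gene, which is also expressed by neurons of the brainstem, read 2725 against 946 and 2702 against 1062, and was 3.29-fold and 3.00-fold higher. Gpnmb was at least 1.92-fold higher than in TDAG51+/+, whose channel was not well above background, and 1.67-fold higher than in TDAG51-/-Tg2. Of the 13 genes, 6 were higher than both controls and 5 were lower than both (35.5% of all genes). The 5 lower genes were Lpl, Itgax, Clec7a, Ccl6 and Csf2ra. Clec7a had log2 ratios of -0.66 and -0.36, and Itgax of -0.74 and -0.17. These 5 genes were chosen for mention after their values were seen.

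Of 16 inflammatory cytokine and sensor genes, Il1a, Tnf, Il6, Nos2 and Il10 were not above background on both arrays. Of the other 11, 5 and 8 were lower in TDAG51-/-, with medians of 0.15 and -0.30. The chemokine gene Ccl2 had the largest difference of this list, with 504 in TDAG51-/- and 2596 in TDAG51+/+, and 627 in TDAG51-/- and 2904 in TDAG51-/-Tg2, or 4.43-fold and 3.86-fold lower. Ccl4, another chemokine gene, was dim and was 1.55-fold and 1.58-fold higher.

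**Figure D3:**
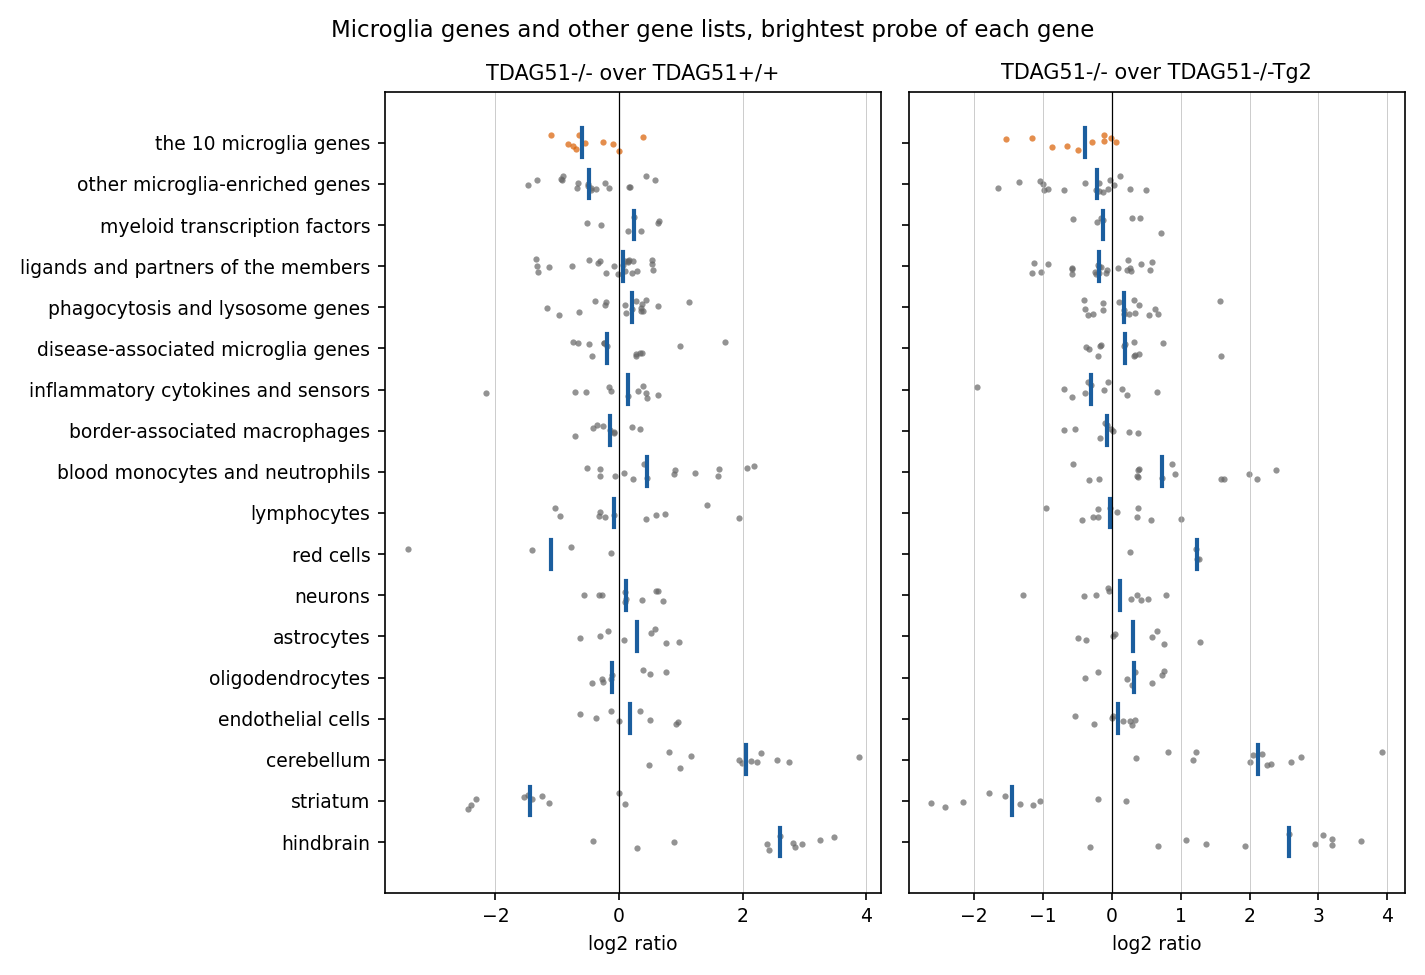
Log2 ratio of TDAG51-/- over TDAG51+/+ (left) and over TDAG51-/-Tg2 (right) for the brightest probe of every gene above background in the 10 microglia genes (orange) and in 17 other lists (grey). Points are genes, spread vertically for visibility, and blue bars are list medians. The medians of the 10 genes are -0.59 and -0.39, those of the cerebellum and hindbrain lists lie above 2, and those of the red cell list are -1.10 and 1.23.

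Markers of other macrophages and of blood moved with the comparisons in their own ways. Of 9 genes of the macrophages at the brain's borders, 7 were lower than in TDAG51+/+ and 6 were lower than in TDAG51-/-Tg2, with medians of -0.15 and -0.07. Their summed background-subtracted intensity was 5722 in TDAG51-/- and 7704 in TDAG51+/+, and 5858 in TDAG51-/- and 7438 in TDAG51-/-Tg2. For the 10 microglia genes the same sum was 33515 against 54896 (61.1%) and 33901 against 54025 (62.8%), where the sum over all probes was 71.0% and 69.6% of the control. Ctss added most to the sum of the 10 genes, and without Ctss it was 17484 against 31065 and 16686 against 29159.

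Of 15 genes of blood monocytes and neutrophils, 11 were higher than in TDAG51+/+ and 12 were higher than in TDAG51-/-Tg2. Their summed intensity was 31192 against 47068 and 38278 against 29221, and none of the 15 was below the background filter. Ly6c1, which endothelial cells express too, carried most of this sum, and without it the sum was 9901 against 5997 and 10022 against 6255, higher in TDAG51-/- on both arrays. S100a8, a neutrophil gene, read 757 against 183 and 743 against 188, and was 4.19-fold and 4.30-fold higher. Of the 4 red cell genes on the array, all were lower than in TDAG51+/+ and all were higher than in TDAG51-/-Tg2. Hba-a1, a haemoglobin gene, read 2259 in TDAG51-/- and 32894 in TDAG51+/+ on the first array, and 35469 in TDAG51-/- and 23756 in TDAG51-/-Tg2 on the second. The 4 red cell genes summed to 4686, 40386, 37823 and 24849 in the same order, and without Hba-a1 to 2468, 7535, 2396 and 1131, with the TDAG51-/- channels close to each other. Hba-a1 and Ly6c1 were chosen for mention after their values were seen. The part of blood cells in the ratios of the 10 genes was not tested.

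Genes of single brain regions had larger median ratios than the microglia genes. All 12 genes of the cerebellum list were higher in TDAG51-/- in each comparison, except Itpr1 with median centring or without normalization. Their medians were 2.06 and 2.12, with 3 genes saturated in a channel, for which the ratios are lower bounds. Of the hindbrain genes, 10 of 11 were higher, with medians of 2.60 and 2.57. Of the 10 striatum genes, 9 were lower in each comparison, with medians of -1.44 and -1.44. The granule cell gene Gabra6 read 58570 in TDAG51-/- and 5885 in TDAG51+/+, and the dopamine receptor gene Drd1 read 742 and 4773. Their part in the ratios of the microglia genes, and of the genes that act on or with them, was not tested. The targeted gene Phlda1 read 350 in TDAG51-/- and 7283 in TDAG51+/+, or 17.3-fold lower, and both of these channels were well above background, that of TDAG51-/- included. On the second array the TDAG51-/- channel read 44.1 and that of TDAG51-/-Tg2 read 50.5. Neither was well above background, so that array does not show the transgene with this probe.

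Many microglia genes depend on the transcription factor PU.1, the product of Spi1, which binds purine-rich sites with a GGAA core. The Spi1 probe itself was dim, with 65.1 against 46.5 and 66.1 against 51.4, and only the TDAG51-/- channels were well above background. Of the 7 myeloid transcription factor genes, 2 were lower than in TDAG51+/+ and 4 were lower than in TDAG51-/-Tg2, with medians of 0.24 and -0.12. Tfec was 1.55-fold and at least 1.64-fold higher, and Cebpa had log2 ratios of -0.52 and -0.56. Spi1 and Cebpa were chosen for mention after their values were seen.

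The region around the start of 7 of the 10 genes was in the table of RefSeq promoters (GRCm38.p6) and was searched on both strands for GAGGAA and for the longer GAGGAAGT, which contains the shorter motif. GAGGAA was in the windows of Aif1, C1qb, Trem2, Itgam and Ctss and not in those of Cx3cr1 and P2ry12, or in 5 of 7, and 8536 of 32851 promoters of the same length held it. GAGGAAGT was in the Ctss window alone, and in 2.82% of all promoters. The windows of C1qb, which was lower on both arrays, and of Ctss, which was close to equality after loess, are shown from 250 bases before the start to 30 bases after it, with the motifs in capitals. They are chr4:136886171-136886450 on the minus strand for C1qb and chr3:95526536-95526815 on the plus strand for Ctss. In C1qb the motif begins 30 bases before the start. In Ctss the first motif begins 164 bases before the start, and the capitals at the start itself are the longer motif read on the opposite strand. A match is a description of these letters and not a binding site.
C1qb: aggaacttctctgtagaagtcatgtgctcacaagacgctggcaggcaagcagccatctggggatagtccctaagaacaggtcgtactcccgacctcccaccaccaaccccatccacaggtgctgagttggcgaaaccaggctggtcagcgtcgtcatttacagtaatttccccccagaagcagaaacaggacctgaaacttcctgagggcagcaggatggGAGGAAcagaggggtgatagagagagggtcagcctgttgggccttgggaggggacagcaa
Ctss: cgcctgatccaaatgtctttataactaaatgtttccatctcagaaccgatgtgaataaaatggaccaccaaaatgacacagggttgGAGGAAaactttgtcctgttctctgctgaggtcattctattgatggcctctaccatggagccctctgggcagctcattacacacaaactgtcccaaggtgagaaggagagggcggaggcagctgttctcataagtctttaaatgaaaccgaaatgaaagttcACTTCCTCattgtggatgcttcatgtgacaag

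The ratios were recomputed under other ways of processing. Over 6 ways, the log2 ratio of C1qa lay between -0.86 and -0.64 against TDAG51+/+ and between -1.41 and -1.16 against TDAG51-/-Tg2. That of C1qb lay between -1.02 and -0.75 and between -1.15 and -0.86. That of Aif1 lay between -0.88 and -0.69 and between -0.88 and -0.65. For C1qa and C1qb the setting used here gave the smallest difference in each comparison, and for all 3 genes the value without normalization was the largest.

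**Figure D4:**
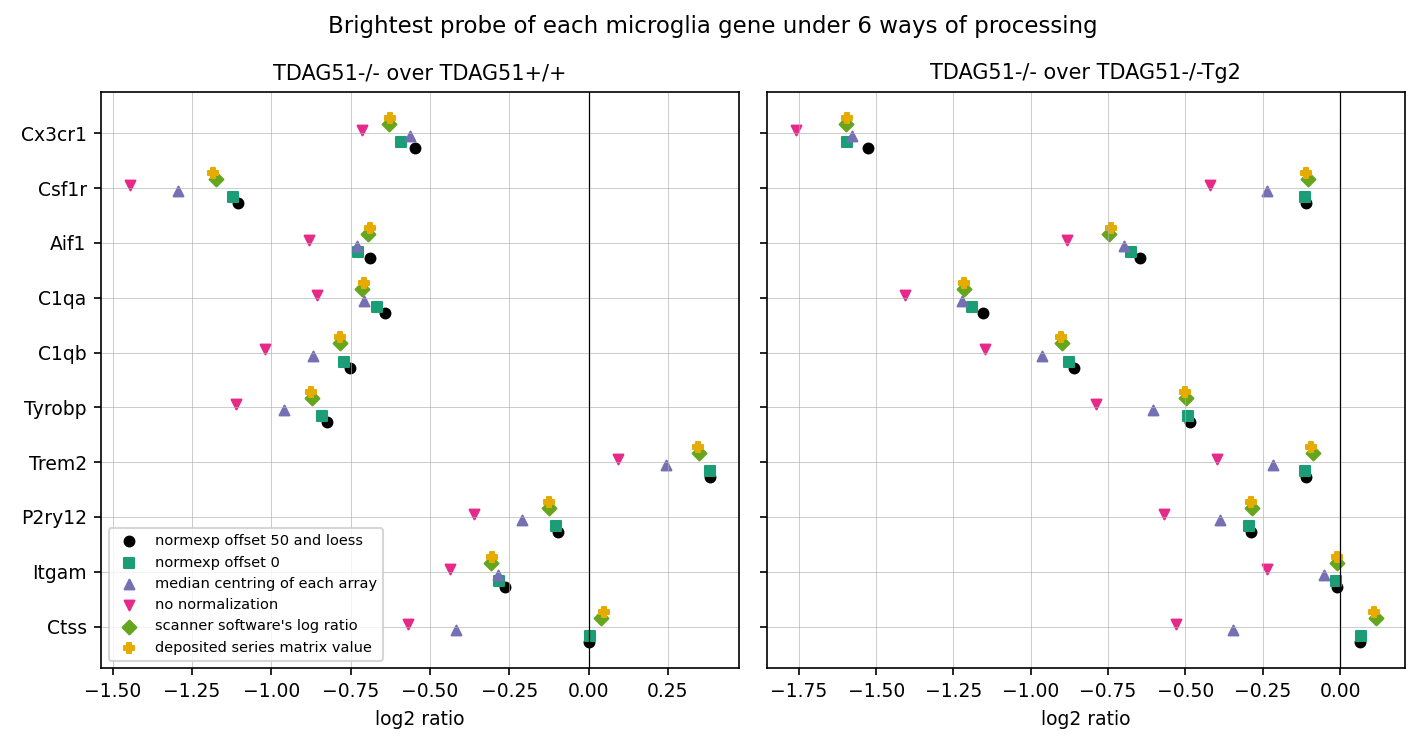
Log2 ratio of the brightest probe of each microglia gene under 6 ways of processing, with TDAG51-/- over TDAG51+/+ on the left and over TDAG51-/-Tg2 on the right. Each symbol is a way of processing, offset vertically for visibility. Only Ctss has symbols on both sides of 0 in a comparison, from -0.57 to 0.05 on the left and from -0.53 to 0.12 on the right.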

How the data were processed

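RNA of whole brain was measured on 2 Agilent whole mouse genome arrays with 2 colours. The authors deposited the scanner output of Feature Extraction 9.5.3.1, which holds mean spot intensity and local background for each channel, flags, and a log10 ratio that the software had already background-corrected and dye-normalized. The authors also deposited a table of log2 ratios of the same arrays, whose processing is not given in the sources used here. No column of the files was left unassigned. The ratio was turned so that TDAG51-/- is the numerator.

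With limma 3.58.1 in R 4.3.3, the background was corrected by normexp with an offset of 50, and loess with a span of 0.3 was fitted within each array with control spots at weight 0. Flagged outlier spots (375 and 300) were left out and spots of a probe were averaged. A probe was used if it was well above background in at least 1 channel of each array (33253 of the 40981 probes with a spot left on both arrays). Probe intensities in the text are raw means in scanner units. Log2 differences between channels of different arrays, and their robust SDs, are not raw. They were taken after loess and a quantile normalization (Aquantile) that gives both arrays the same distribution of average log intensity. They depend on that step. Median intensities of TDAG51-/- and its control were 338 and 364 (first array) and 336 and 385 (second array), over backgrounds of 44 and 39, and of 42.5 and 39. The precision is limited by 1 array per comparison. Where 1 channel was not well above background, the fold is written as "at least". It is taken against the dimmest signal that was, or against the channel's own signal where that was higher. In the latter case it equals the plain ratio, as for Tfec and Retnlg against TDAG51-/-Tg2.

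Gene names were updated through a RefSeq table of GRCm38.p6. An accession named 22847 of the 40981 probes, a current symbol named 6630 and an older symbol 3092, while 8412 kept the name in the files. The named genes are all probes of the 10 genes, Phlda1, 6 ligands and partners, and up to 4 genes of each list with the largest difference in 1 direction from both controls, at least 1.5-fold. A few others were chosen after their values were seen, as said beside them. The members and the 17 other lists were chosen with earlier results of these data known. The method was run on a simulated array on which only a few unsaturated spots were changed. That array lacked the wide differences and the saturation of these data, so it does not show how loess performs on them. The alternatives were offset 0, median centring, no normalization, the scanner's ratio, the deposited ratio, the median of a gene's probes and other background filters. Tables were written and plots drawn with Python 3.11.15, pandas 2.3.3 and matplotlib 3.10.9.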

Additional observations from a re-analysis of the deposited data

Results flagged for a closer look

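The brightest Trem2 probe (A_51_P269546) was higher in TDAG51-/- than in TDAG51+/+ brain, with a log2 ratio of 0.38, and lower than in TDAG51-/-Tg2 brain, with a log2 ratio of -0.11. It drew attention because the directions against the 2 controls were opposite. The difference between the comparisons was not tested, since each has 1 array. On the first array TDAG51-/- read 3919 and its control 3671, and on the second they read 2775 and 3661. The other Trem2 probe had log2 ratios of -0.01 and -0.24.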

How the results depend on the processing

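The median log2 ratio of the 10 genes was below 0 in both comparisons under all alternatives. Against TDAG51+/+ it moved from -0.59 to -0.79 without normalization and to -0.66 with the scanner's log ratio. Against TDAG51-/-Tg2 it moved from -0.39 to -0.50 with median centring, to -0.68 without normalization and to -0.52 when a gene was taken as the median over its probes. Genes higher than both controls went from 1 (Ctss) to 0 with median centring and to 0 without normalization. Genes at least 1.5-fold lower than both went from 3 to 5 without normalization, and were 4 with offset 0, median centring, the scanner's ratio and the deposited ratio. The count lower than both, whose alternatives were added after the data were seen, was 8 or 9. Of 160 values of single probes under an alternative, 4 had another sign than here, all of Ctss. The median log2 ratio over all probes was 0.02 and 0.02 after loess, -0.04 and -0.06 after median centring and -0.19 and -0.24 without normalization, and changes without normalization are relative to that shift.

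No paired analysis was possible because each comparison has 1 array. For the same reason no array was left out, and no spread between animals is known. The second probe of Cx3cr1 was not well above background in the TDAG51-/-Tg2 channel, so its ratio in that comparison is a bound.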

Other observations

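Other cell types of the brain and the lymphocytes were followed by lists of marker genes, given here as values. The neuron list (10 genes, 3 of them saturated in a channel) had median log2 ratios of 0.11 (TDAG51+/+ as control) and 0.13 (TDAG51-/-Tg2 as control), and the astrocyte list (8 genes, 4 saturated) had 0.29 and 0.31. Without normalization these medians were below 0, with -0.40 and -0.50 for neurons and -0.29 and -0.28 for astrocytes, and so they were with median centring. The channel that came out dimmer was saturated for Eno2, Uchl1, Slc1a3, S100b and Aldoc, and for Mag and Cnp of the oligodendrocyte list. The same held for Syp against TDAG51+/+. These ratios, all above 0 after loess, are not usable as folds, though they enter the medians. Aqp4, the water channel gene of astrocyte endfeet, read 13415 in TDAG51-/- and 9642 in TDAG51+/+, and 11590 in TDAG51-/- and 6523 in TDAG51-/-Tg2, and was 1.95-fold and 2.42-fold higher. Of the 8 astrocyte genes, 5 were higher than both controls, the saturated Slc1a3, S100b and Aldoc among them. Lower than both were 2 (35.5% of all genes), Gfap and Slc1a2. Gfap had log2 ratios of -0.31 and -0.37. Slc1a2, with its control channels saturated, was at least 1.55-fold and at least 1.40-fold lower. Gfap and Slc1a2 were chosen for mention after their values were seen. The oligodendrocyte list (8 genes on the array, 2 saturated) had medians of -0.12 and 0.32, and the endothelial list (8 genes) had 0.17 and 0.09. Without normalization the oligodendrocyte medians were -0.38 and -0.13 and the endothelial medians were -0.04 and -0.18.

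Of 11 lymphocyte genes, 6 were lower in TDAG51-/- in each comparison, with medians of -0.08 and -0.02, the second of which was 0.04 with median centring. Cd79b, a part of the B cell receptor, read 160 in TDAG51-/- and 331 in TDAG51+/+, and 172 in TDAG51-/- and 391 in TDAG51-/-Tg2, and was 1.94-fold and 1.93-fold lower. Nkg7, a gene of natural killer and cytotoxic T cells, read 592 against 222 and 678 against 383, and was 2.69-fold and 2.02-fold higher. The neutrophil genes S100a9 and Retnlg were also higher than both controls, the first by 3.07-fold and 3.00-fold and the second by 4.54-fold and at least 5.22-fold. These lists describe RNA from whole brain, and each ratio is from 1 array.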
